A study of Rattus norvegicus with 16 samples.

Results

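The comparison described here is that of D3T with vehicle in rat liver, 4 arrays against 4, which are 8 of the 16 arrays of the series. D3T is 3H-1,2-dithiole-3-thione, a small sulphur heterocycle without substituents on its ring. Male Fischer F344 rats, an inbred strain, were 6 weeks old when they arrived, were housed singly, and were allotted at random to 4 groups. The vehicle group was gavaged with saturated sucrose and the D3T group with 0.3 mmol/kg D3T, every other day for 5 days (3 doses), and each liver was collected 24 h after the final dose. The titles of the vehicle arrays call them untreated, whereas the series' design text gives them sucrose, and they are called vehicle throughout. Oltipraz (OLT, with a methyl and a pyrazinyl substituent) and TBD (with a tert-butyl substituent) were given to 4 rats each at the same dose and on the same schedule. Each array carries whole liver RNA, so every value is an average over all the cells of the organ, and it shows the state 24 h after the last dose, not the first response. The labels do not name the animal behind each array, and the spread between arrays holds both animal and technical variation.

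Dithiolethiones are electrophiles that react with cysteines of KEAP1, the adaptor that otherwise sends the transcription factor NRF2 for degradation. NRF2 that escapes binds with small MAF proteins to the antioxidant response element, and its best known liver targets conjugate, reduce or hydrolyse reactive chemicals and supply the glutathione and NADPH that this consumes. Livers of animals given such compounds detoxify the mould toxin aflatoxin better, which is why D3T and oltipraz were studied as protective agents against liver cancer.

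Expression values are log2 units from GCRMA, a method that corrects the background of Affymetrix probes and normalizes between arrays. A difference of 1 unit is therefore a factor of 2. The medians of the 8 arrays lay between 3.27 and 3.58, and arrays of the same group correlated across probe sets at r of 0.9896 to 0.9971. On the first principal component of all 16 arrays, which carried 39.9% of the variance, the D3T arrays lay together at 10.12 to 17.05. Vehicle arrays 2 and 4 lay further out (-38.83 and -38.54) than vehicle arrays 1 and 3 (-16.96 and -22.89), so each result below was also computed without arrays 2 and 4. The 13 hepatocyte markers tested, albumin among them, averaged 13.48 to 13.67 on the vehicle arrays and 13.44 to 13.56 on the D3T arrays, which fits the label of liver.

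Short stretches of promoter are shown for 8 genes that carry the antioxidant response element core within 250 bases before the gene's start. In 4 of them (Gstp1, Gsta3, Ugdh and Mif) the transcript rose with D3T, in Idi1, Fdps and Btd it fell, and in Gclm it did not pass the test. Each stretch of 60 bases runs 5′ to 3′ on the gene's own strand, from RefSeq on assembly GRCr8, and the capitals mark the core TGACNNNGC, or GCNNNGTCA where the match lies on the other strand.
Gstp1 (chr1:210769736-210769795, minus strand, core 61 bases before the start): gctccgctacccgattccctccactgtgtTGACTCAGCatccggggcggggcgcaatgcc
Gsta3 (chr9:31154929-31154988, plus strand, core 17 bases before the start): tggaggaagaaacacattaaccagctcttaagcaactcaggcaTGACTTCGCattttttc
Ugdh (chr14:43202278-43202337, plus strand, core 207 bases before the start): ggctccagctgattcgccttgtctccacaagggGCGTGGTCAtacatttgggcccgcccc
Mif (chr20:12790237-12790296, plus strand, core 92 bases before the start): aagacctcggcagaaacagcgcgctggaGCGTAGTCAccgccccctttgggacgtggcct
Gclm (chr2:213031935-213031994, plus strand, core 172 bases before the start): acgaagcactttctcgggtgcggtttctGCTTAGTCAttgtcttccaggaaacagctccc
Idi1 (chr17:66547595-66547654, minus strand, core 104 bases before the start): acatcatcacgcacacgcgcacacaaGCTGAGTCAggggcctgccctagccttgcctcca
Fdps (chr2:176804967-176805026, minus strand, core 179 bases before the start): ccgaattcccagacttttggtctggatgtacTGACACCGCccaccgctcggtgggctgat
Btd (chr16:6871681-6871740, plus strand, core 237 bases before the start): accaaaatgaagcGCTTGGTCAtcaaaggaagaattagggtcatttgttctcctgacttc

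The core is short and common. It was found on either strand in 10.2% of all 27457 promoters of the table and in 13.4% of the 2584 promoters of genes tested here. Among genes higher with D3T 18 of 122 promoters held it (14.8%), and among genes lower with D3T 50 of 344 (14.5%), so genes of both directions held it about as often as tested genes overall. Among glutathione transferases 4 of 12 promoters held it, and among cholesterol synthesis genes, which mostly fell, 4 of 13. The sterol regulatory element TCACNCCAC was in 0.976% of all promoters, in 0.58% of those of genes tested and in 0 of the 13 of cholesterol synthesis. It is so rare that 13 promoters are too few to show a lack of it. A match is a string of letters and not a measured binding site, and elements further from the start were not searched.

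On the deposited scale, more genes were lower with D3T than higher, a balance that turned under some other scalings. Of 3104 genes tested, each by its brightest probe set, 550 passed an adjusted p of 0.05 in limma (17.7%), of which 143 were higher with D3T (4.61% of all) and 407 lower (13.1%). Changes of at least 2-fold were fewer, with 41 genes higher (1.32%) and 188 lower (6.06%). The D3T arrays lay wholly above the vehicle arrays for 218 genes (7.02%) and wholly below them for 538 (17.3%). The median difference of all genes was 0.03, on values that had been normalized between arrays. The counts within gene lists below are to be read against the 4.61% and 13.1%.

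The balance of directions depended on the scaling of the arrays. Counted by probe set, 981 of 5323 passed (18.4%), of which 33.5% were higher with D3T. That share was 52.9% after renewed quantile normalization and 43.8% after centring of the array medians, while the number of lower probe sets was 652, 599 and 659 in turn. Without vehicle arrays 2 and 4 together, 418 probe sets passed, 400 of them also among the 981, and 40.4% of the 418 were higher.

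**Figure D1:**
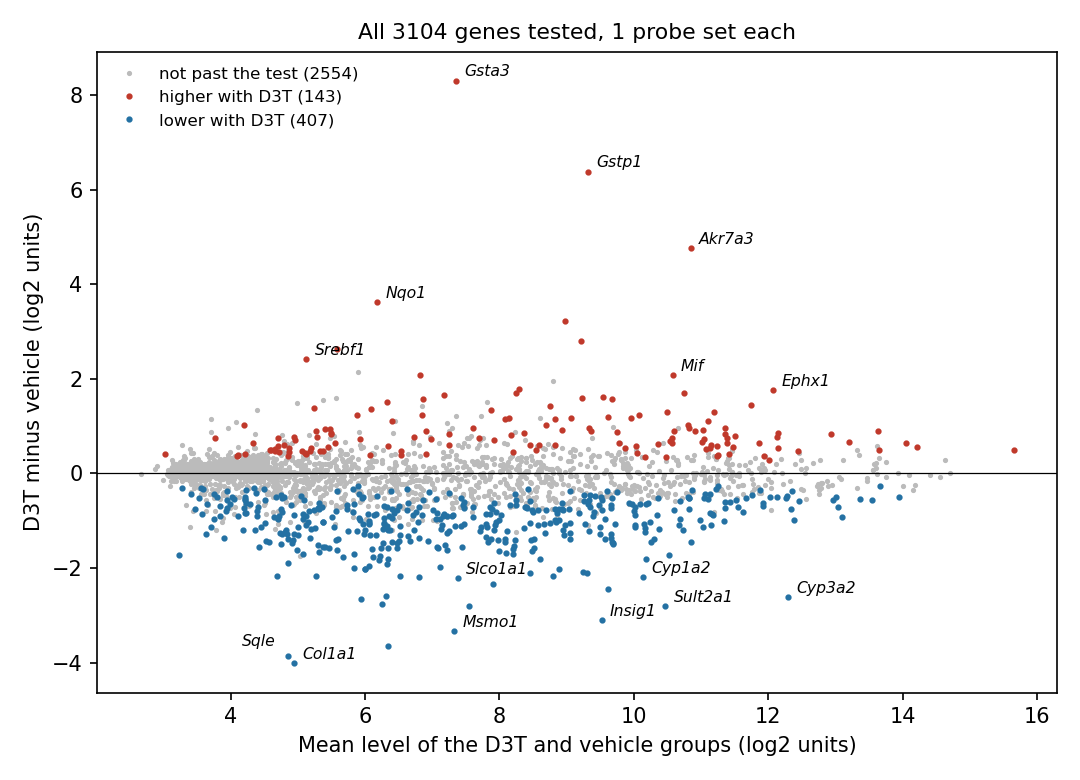
Difference between the D3T and vehicle group means (log2 units, vertical) against the mean level of both groups (log2 units, horizontal) for 3104 genes, with genes past the test coloured by direction (143 higher, 407 lower). Gsta3, Gstp1 and Akr7a3 stand more than 4 units above 0, and no gene lies as far below 0 as Gsta3 lies above it.

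Glutathione transferases, the enzymes that couple glutathione to electrophiles, were the family with the largest rises. Of 15 members tested, 9 rose and 0 fell, against 4.61% of all genes higher, and the median member differed by 0.77, against 0.03 for all genes. Both numbers were 9 and 0 also without vehicle arrays 2 and 4. Where a fold can be given, it ran from 1.59 (Mgst1) to 83.2 (Gstp1).

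Gsta3, an alpha class transferase, read 3.31, 2.98, 3.25 and 3.27 on vehicle arrays 1 to 4 and 11.65, 11.26, 11.08 and 12.01 on D3T arrays 1 to 4. Its vehicle values lay below the median of their own arrays, at the dim end of the scale, so no fold is given, while its D3T values were among the bright ones. The difference was 8.30 ± 0.45 (SE, adjusted p = 4.87e-08), and 2 dimmer probe sets of the gene gave 2.26 and 5.20. Gstp1, the pi class transferase that is known to be low in normal rat liver and abundant in preneoplastic foci, read 6.33, 6.14, 6.04 and 6.02 with vehicle and 12.36, 12.02, 12.57 and 13.10 with D3T. Every D3T array lay far above every vehicle array. The gene rose 83.2-fold (6.38 ± 0.59, adjusted p = 1.1e-05), and its second probe set gave 8.42 from a vehicle mean of 1.96.

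The other 7 members that rose were bright in both groups. Gstt1, a theta class transferase, read 8.06, 7.64, 8.03 and 8.44 with vehicle and 9.26, 9.77, 9.43 and 9.38 with D3T, a 2.67-fold rise. The microsomal transferase Mgst2 read 9.17, 8.78, 8.94 and 9.24 and 10.35, 10.25, 9.95 and 10.31, a 2.27-fold rise. No D3T array overlapped a vehicle array for either gene. Gstt2 rose 2.02-fold, Gstm1 1.87-fold, Gsta1 1.81-fold, Gstm2 1.71-fold and Mgst1 1.59-fold, with adjusted p between 0.000137 and 0.00195. Gstm1 is a liver mu class enzyme that started high, and it read 13.34, 13.02, 13.24 and 13.12 with vehicle and 14.09, 13.96, 13.88 and 14.40 with D3T. Its 4 D3T arrays again lay above all 4 vehicle arrays.

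Members that did not pass included Mgst3 (0.53 ± 0.21, adjusted p = 0.105), whose arrays did not overlap, Gsta4 (0.26 ± 0.36) and Gstm7 (-0.03 ± 0.21). Mgst3 passed with an adjusted p of 0.0176 when the fit was made on the 8 arrays alone. Hpgds lay below the filter on low values. Probes of close relatives in this family can cross-hybridise, so the division of the signal between members such as Gsta1 and Gsta3 is uncertain, as it is among Cyp3a, Ugt2b, Sult2a and ribosomal protein genes.

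Oxidoreductases and hydrolases known as NRF2 targets also rose or did not pass. Of 11 tested 6 rose and 0 fell, with a median of 0.63. Akr7a3, the aldehyde reductase that reduces aflatoxin dialdehyde, read 8.37, 8.48, 8.43 and 8.56 with vehicle and 13.45, 12.79, 13.13 and 13.55 with D3T, a 27.3-fold rise (4.77 ± 0.32, adjusted p = 6.08e-07). Nqo1, the quinone reductase that takes up electrons from NADPH or NADH, read 4.77, 4.30, 4.39 and 4.02 and 8.29, 8.13, 7.29 and 8.23, a 12.3-fold rise (3.62 ± 0.69, adjusted p = 0.00226). The groups stood far apart in both genes, and D3T array 3 was the lowest D3T array of Nqo1.

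Ephx1, the microsomal epoxide hydrolase, read 11.17, 11.12, 11.34 and 11.15 with vehicle and 12.94, 12.98, 12.65 and 13.23 with D3T, a 3.37-fold rise. Aldh1a1, which oxidises retinal and other aldehydes, read 9.53, 10.46, 9.60 and 9.98 and 11.49, 11.39, 11.62 and 11.87, a 3.25-fold rise. Vehicle array 2 was the highest vehicle array of Aldh1a1 and still lay under every D3T array. The aldehyde reductases Akr1a1 and Akr7a2, relatives of Akr7a3, rose 1.6-fold and 1.54-fold. All 6 calls held without vehicle arrays 2 and 4, where Nqo1 had an adjusted p of 0.0411 and Akr7a2 one of 0.0457. Under that setting 1 of the other members was called lower. Ptgr1, Cbr1 and Ces1d were among the 5 that did not pass, and Aldh3a1 lay below the filter.

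**Figure D2:**
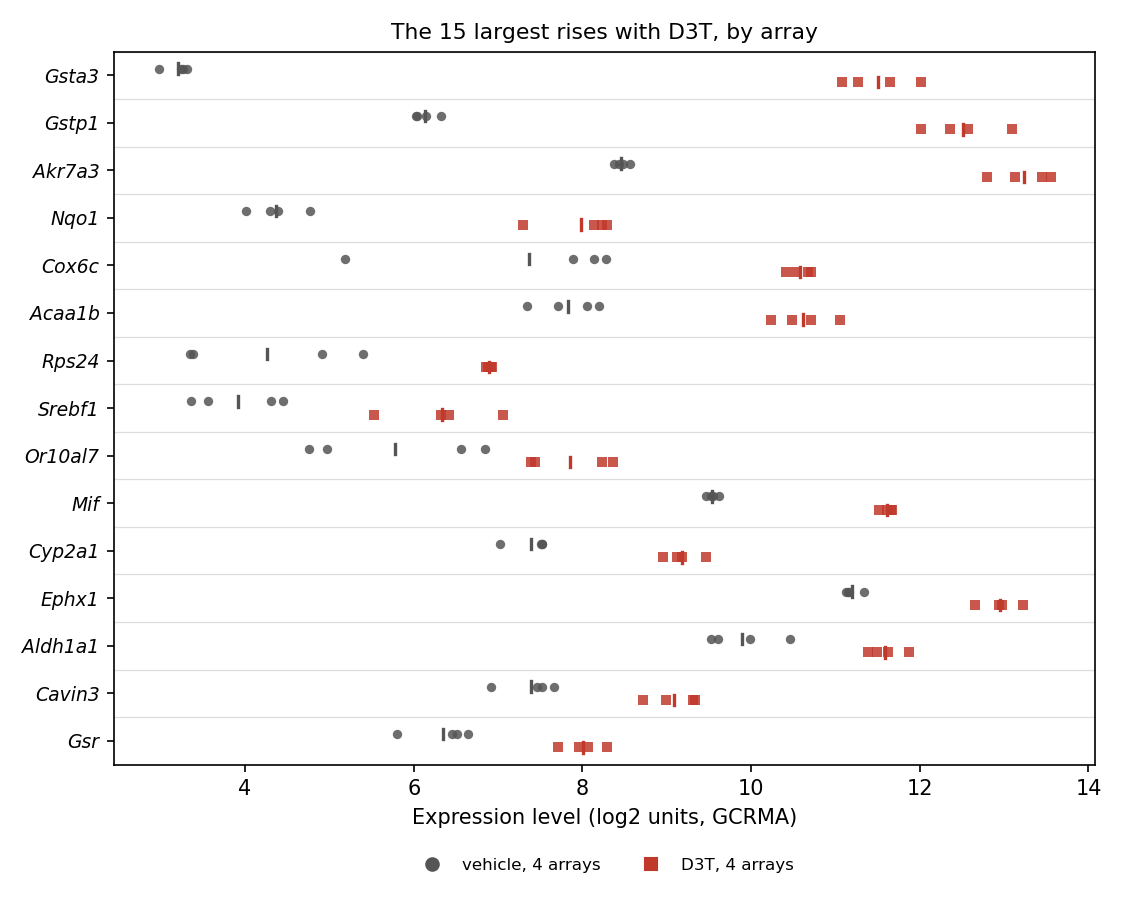
Expression level (log2 units) of the 15 genes with the largest rises among genes whose D3T and vehicle arrays do not overlap, 1 point per array and a bar at each group mean of 4 arrays. Gsta3 goes from about the bottom of the scale to 11.08 to 12.01, and Cox6c shows vehicle array 4 at 5.19 well below the other vehicle arrays.

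Few genes of glutathione synthesis and recycling passed the test. Of 13 glutathione and thioredoxin genes tested, 1 rose, 1 fell and 11 did not pass, with a median of 0.24. Gsr, the reductase that regenerates glutathione from its oxidised form, read 6.45, 5.80, 6.64 and 6.51 with vehicle and 7.96, 8.07, 7.71 and 8.30 with D3T, a 3.16-fold rise (adjusted p = 0.00476). Its arrays did not overlap, yet without vehicle arrays 2 and 4 the difference was 1.46 with an adjusted p of 0.0646.

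Gclc, the catalytic subunit of glutamate-cysteine ligase, the first enzyme of glutathione synthesis, read 7.44, 7.30, 7.43 and 8.07 with vehicle and 8.30, 8.75, 8.27 and 9.49 with D3T. Every D3T array lay above every vehicle array, and the difference of 1.14 ± 0.53 (95% interval 0.01 to 2.28) did not pass in the fit over 16 arrays (adjusted p = 0.157). Gclm, its regulatory subunit, read 9.73, 9.80, 9.68 and 9.95 and 10.00, 10.42, 10.22 and 10.52, likewise without overlap and likewise not past the test (0.50 ± 0.30, 95% interval -0.13 to 1.14, adjusted p = 0.276). With the spread taken from the 8 arrays alone both genes had an adjusted p of 0.0203, so their calls depend on which arrays set the error. Gclm's probe sets also disagreed, with the others at -1.68 and -0.08.

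Txnrd1, the thioredoxin reductase, read 8.21, 8.70, 8.54 and 8.48 with vehicle and 8.27, 8.34, 8.64 and 9.63 with D3T, with only D3T array 4 above the vehicle range. Gss, which completes glutathione, differed by 0.36 ± 0.18 and did not pass. Cat, the peroxisomal catalase that breaks down hydrogen peroxide, fell 1.89-fold, from 13.42, 13.77, 13.30 and 13.73 to 12.54, 12.17, 12.93 and 12.91, again without overlap. The call of Cat was lost without vehicle arrays 2 and 4 (-0.72, adjusted p = 0.182).

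Of 4 genes of NADPH supply 1 rose and 1 fell. Tkt, the transketolase of the pentose phosphate pathway, read 8.69, 8.49, 8.39 and 9.36 with vehicle and 10.38, 10.66, 10.43 and 9.95 with D3T, a 3.07-fold rise. Me1, the malic enzyme, read 10.53, 9.79, 10.16 and 10.22 and 10.99, 10.67, 11.45 and 11.42 without overlap and missed the threshold (0.96 ± 0.33, adjusted p = 0.0573), although 2 of its other probe sets passed at 1.48 and 1.97. Idh1, the cytosolic isocitrate dehydrogenase, fell slightly (-0.32 ± 0.10, adjusted p = 0.0402) without overlap. Its call was lost without any single array but D3T 3 (adjusted p up to 0.124). Averaged over its probe sets, Idh1 differed by -0.12 and was not called (adjusted p = 0.543). Of 11 heme and iron genes 0 rose and 2 fell. Slc40a1, the iron exporter ferroportin, read 8.60, 9.12, 8.76 and 9.31 with vehicle and 7.16, 7.80, 6.90 and 7.20 with D3T, a 3.21-fold fall. Hmox1, heme oxygenase and a much used NRF2 marker, stayed at 3.64 to 3.84 with vehicle and 3.66 to 3.73 with D3T, just above the array medians. Nfe2l2, the gene of NRF2 itself, read 6.39, 6.95, 6.33 and 7.14 and 5.87, 5.40, 6.47 and 6.12, with overlapping arrays and no call (-0.74 ± 0.31, adjusted p = 0.123). Mafk and Sqstm1 lay below the filter, and Keap1 was not analysed here.

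In conjugation, the called genes of glucuronidation were higher and the called sulfotransferases lower. Ugdh, which makes the UDP-glucuronic acid that all glucuronosyltransferases use, read 8.14, 8.74, 8.50 and 8.57 with vehicle and 9.67, 9.61, 9.25 and 10.07 with D3T, a 2.24-fold rise (adjusted p = 0.00969) without overlap. Of the 8 genes of this list 3 rose and 0 fell. Ugt2b1 read 8.15, 9.22, 8.92 and 9.15 with vehicle and 9.93, 9.22, 9.69 and 10.41 with D3T, a 1.93-fold rise in which D3T array 2 stood level with vehicle array 2. Its call was lost in the fit on the 8 arrays alone, after median centring (adjusted p = 0.0717) and without vehicle array 1 (0.71, adjusted p = 0.0676), D3T array 1 (0.91, adjusted p = 0.0705) or D3T array 4 (0.75, adjusted p = 0.0925). Ugt2b15 differed by 0.29 ± 0.09, a call that was lost under centring and without vehicle array 1, 3 or 4 or D3T array 1, 2 or 4, with adjusted p up to 0.0912 among the latter.

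Sulfotransferases pass sulfate to hormones, bile acids and drugs. Of 9 genes of the list 4 fell and 0 rose, against 13.1% of all genes lower, and the same numbers were found without vehicle arrays 2 and 4. Sult2a1, which sulfates hydroxysteroids and bile acids, read 12.01, 11.93, 11.50 and 12.04 with vehicle and 9.65, 9.20, 8.19 and 9.25 with D3T, a 6.95-fold fall (-2.80 ± 0.38). Its relatives Sult2a6 and Sult2a2 fell 5.42-fold and 4.05-fold. All D3T arrays of these 3 genes lay under all vehicle arrays. Sult1c3 read 12.80, 12.91, 12.81 and 12.99 with vehicle and 11.82, 12.20, 11.97 and 11.63 with D3T, a 1.97-fold fall. The Sult2a genes are close in sequence, and of 4 Sult2a1 probe sets 3 gave differences of -2.80 to -3.52 and 1 gave 0.36, so they are not independent evidence for 3 separate genes.

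Cytochromes P450 and their partners, the oxidising first step of drug metabolism, fell or did not pass, with 1 exception. Of 30 tested, 10 fell, 1 rose and 19 did not pass, with a median of -0.16. Cyp3a2, the male-specific member of the CYP3A family, read 13.35, 13.95, 13.45 and 13.70 with vehicle and 11.14, 11.41, 10.77 and 10.64 with D3T, a 6.14-fold fall (-2.62 ± 0.19, adjusted p = 1.35e-06). Cyp1a2, known for activating aromatic amines and helping to activate aflatoxin, read 11.65, 11.26, 11.37 and 10.65 and 9.03, 9.58, 9.42 and 8.11, a 4.58-fold fall (adjusted p = 0.000155). Array 4 was the lowest of its group for Cyp1a2 both with vehicle and with D3T, and the groups did not overlap.

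Fmo1, a flavin monooxygenase, read 10.86, 11.37, 11.15 and 10.95 with vehicle and 8.86, 9.82, 9.39 and 9.06 with D3T, a 3.48-fold fall. Por, the reductase that feeds electrons to every microsomal P450, read 9.51, 9.65, 9.71 and 9.82 and 8.43, 8.60, 8.01 and 8.64, a 2.38-fold fall. Both genes had all D3T arrays below all vehicle arrays. Cyp2j3, an epoxygenase of fatty acids, fell 1.63-fold. Cyp2a1, a testosterone hydroxylase that is higher in female rats, was the member that rose, from 7.03, 7.52, 7.50 and 7.52 to 9.18, 9.12, 8.95 and 9.47 (3.45-fold). The phenobarbital-responsive Cyp2b2 read 9.57, 10.32, 10.00 and 9.91 with vehicle and 10.04, 10.61, 10.14 and 10.42 with D3T, which overlap and did not pass (0.35 ± 0.44, 95% interval -0.59 to 1.29).

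The other 5 calls were small, between -0.37 and -0.78, and fragile. They were those of Cyp2c11, the main male P450 of rat liver (-0.55 ± 0.16), Cyp2c7, Cyp2b3, Cyp3a18 and Cyp3a23-3a1. The call of Cyp2c11 was lost without vehicle array 1, 3 or 4 or D3T array 1, 3 or 4, that of Cyp2c7 without any array but D3T 2, and that of Cyp2b3 without any but vehicle 2. Cyp3a18 lost its call without vehicle array 2 or 3 or D3T array 1, and Cyp3a23-3a1 without vehicle array 2, 3 or 4 or D3T array 1 or 3. Adjusted p then reached 0.103 for Cyp2c11, 0.136 for Cyp2c7, 0.126 for Cyp2b3, 0.0584 for Cyp3a18 and 0.125 for Cyp3a23-3a1. Averaged over its probe sets, Cyp2c11 differed by -0.32 and was not called (adjusted p = 0.311). Without vehicle arrays 2 and 4 together 3 of the 10 falls were still called, those of Cyp3a2, Cyp1a2 and Cyp2j3, while Fmo1 had an adjusted p of 0.0577 and Por one of 0.0746.

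Cholesterol synthesis had the lowest median of all the gene lists described here. The pathway builds sterols from acetyl-CoA and is normally driven by the factor SREBP2. Of 15 genes 8 fell and 0 rose, the median member differed by -1.12, and 10 had all D3T arrays below all vehicle arrays. Members of early, middle and late steps were among the 8.

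Idi1, an isomerase of the early isoprenoid steps, read 7.56, 8.54, 7.60 and 7.85 with vehicle and 5.96, 5.47, 5.95 and 5.46 with D3T, a 4.53-fold fall. Fdps, which makes farnesyl diphosphate, read 11.44, 11.23, 11.16 and 11.49 and 10.68, 9.86, 9.94 and 10.04, a 2.29-fold fall. Both genes stood apart between groups, and a second probe set of Idi1 differed by 0.07. Sqle, the epoxidase that commits squalene to sterols, read 6.16, 8.10, 5.97 and 6.91 with vehicle and 3.00, 2.90, 2.94 and 2.86 with D3T. All D3T values of Sqle lay below the median of their arrays, so its difference of -3.86 ± 0.58 (adjusted p = 0.000478) is not given as a fold, and vehicle array 2 was its highest.

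Lss, the cyclase that forms lanosterol, read 6.65, 6.71, 6.14 and 6.74 with vehicle and 5.88, 5.30, 5.36 and 5.66 with D3T, a 2.01-fold fall. Msmo1, which removes methyl groups from the sterol ring, read 9.15, 9.56, 8.17 and 9.09 and 5.72, 5.42, 6.10 and 5.45, a 10-fold fall (-3.32 ± 0.37, adjusted p = 4.99e-05). A second Msmo1 probe set gave -2.83. Cyp51 and Ebp, of the steps after lanosterol, fell 2.42-fold and 2.18-fold. Insig1, the membrane protein that holds the sterol sensor in the endoplasmic reticulum and is itself an SREBP target, read 11.45, 11.68, 9.98 and 11.16 with vehicle and 8.17, 8.28, 8.03 and 7.43 with D3T, a 8.52-fold fall. The D3T arrays of each of these 5 genes lay below all their vehicle arrays.

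Nsdhl read 9.80, 9.85, 9.73 and 10.07 with vehicle and 9.52, 9.22, 9.16 and 8.66 with D3T without overlap, just outside the threshold (-0.72 ± 0.25, adjusted p = 0.0563). Fdft1, squalene synthase, differed by -0.01 ± 0.19 in its brightest probe set, whereas 2 other probe sets differed by -1.29 each and passed. Without vehicle arrays 2 and 4 the count was 5 of 15, with the calls of Fdps (adjusted p = 0.0637), Cyp51 (0.131) and Ebp (0.124) lost and a list median of -0.99. Mvd lay below the filter.

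Fatty acid synthesis is driven by the sister factor SREBP1, and of 12 lipogenic genes 1 rose and 0 fell. Srebf1, the gene of SREBP1 itself, read 4.31, 3.36, 3.56 and 4.45 with vehicle and 7.06, 6.42, 5.53 and 6.32 with D3T, a 5.31-fold rise (adjusted p = 0.00112) without overlap. Its vehicle arrays 2 and 3 lay just above their array medians (3.27 and 3.46), so the size of the rise is uncertain. Fasn, fatty acid synthase and a classic SREBP1 target, read 8.87, 6.28, 8.16 and 8.002 and 10.70, 9.70, 9.48 and 9.26, with vehicle array 2 far below the rest. Its 4 D3T arrays lay above all vehicle arrays, but the wide spread left 1.96 ± 1.02 (95% interval -0.23 to 4.14) short of the threshold in the fit over 16 arrays (adjusted p = 0.212, and 0.0294 in the fit on 8). Acaca and Acacb lay below the filter.

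**Figure D3:**
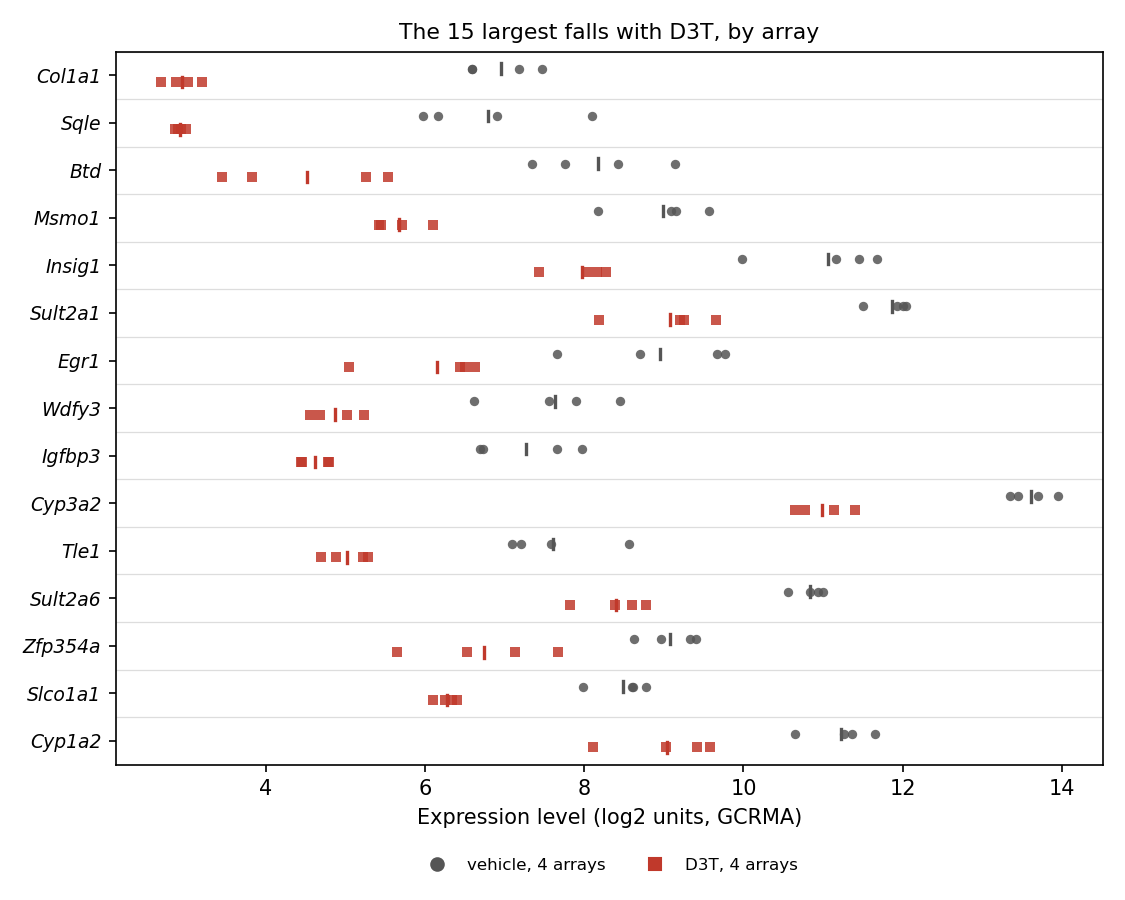
Expression level (log2 units) of the 15 genes with the largest falls among genes whose D3T and vehicle arrays do not overlap, 1 point per array and a bar at each group mean of 4 arrays. Sqle is tight on the D3T arrays (2.86 to 3.00) and spread on the vehicle arrays (5.97 to 8.10), and Cyp3a2 and Sult2a1 are the brightest of the genes shown.

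Genes that make or carry bile acids fell or did not pass. Of 22 tested 10 fell and 0 rose, with a median of -0.51. Slco1a1, an uptake transporter of bile salts and steroid conjugates, read 7.98, 8.78, 8.59 and 8.61 with vehicle and 6.40, 6.09, 6.25 and 6.34 with D3T, a 4.65-fold fall (-2.22 ± 0.20, adjusted p = 1.1e-05). Fgfr4, the receptor through which the gut hormone FGF19 (FGF15 in rodents) restrains bile acid synthesis, read 6.87, 6.96, 7.10 and 7.08 and 5.34, 5.40, 5.25 and 4.99, a 3.38-fold fall. Both had wide gaps between the groups.

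Akr1c14, a hydroxysteroid dehydrogenase, fell 1.82-fold, Scp2, the sterol carrier of the peroxisomal side-chain steps, 1.55-fold and Baat, which couples bile acids to taurine or glycine, 1.52-fold. The call for Cyp27a1, which starts the acidic pathway, was a 1.53-fold fall. It was lost when the gene's probe sets were averaged (-0.35, adjusted p = 0.0764). Slc10a1, the sodium-coupled uptake carrier, fell 1.4-fold and Abcb11, the export pump, 1.57-fold. Cyp7a1, the rate-limiting enzyme of the classic pathway, read 7.84, 7.13, 6.41 and 7.36 with vehicle and 6.69, 6.54, 5.67 and 5.96 with D3T, which overlapped and did not pass (-0.97 ± 0.64, 95% interval -2.33 to 0.39). Without vehicle arrays 2 and 4 the count was 5 of 22, and Cyp27a1 (adjusted p = 0.0518), Slc10a1 (0.165) and Abcb11 (0.143) were no longer called.

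Of 33 genes of PPAR-alpha and fatty acid oxidation, 12 fell and 2 rose, with a median of -0.33. PPAR-alpha is the nuclear receptor that switches on fat burning in the fasted liver. Cyp4a1, its standard target and a fatty acid omega-hydroxylase, read 10.11, 10.76, 10.38 and 10.35 with vehicle and 9.001, 8.43, 9.23 and 9.16 with D3T, a 2.72-fold fall (adjusted p = 0.00229). Acadl, the mitochondrial dehydrogenase of long-chain fatty acids, read 11.63, 11.70, 11.54 and 11.61 and 10.82, 11.01, 10.43 and 10.73, a 1.83-fold fall. Both genes were lower on every D3T array than on any vehicle array.

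Acaa1b, a peroxisomal thiolase and also known as a PPAR-alpha target in rodents, went the other way. It read 7.34, 8.05, 7.72 and 8.19 with vehicle and 10.49, 10.23, 10.71 and 11.05 with D3T, a 6.94-fold rise (2.80 ± 0.30, adjusted p = 3.69e-05). Its groups lay far apart. Acaa2, the mitochondrial thiolase, rose 1.46-fold. Crot and Ehhadh, of peroxisomal oxidation, fell 2.65-fold and 1.84-fold. Without vehicle arrays 2 and 4 the counts were 3 lower and 1 higher, and Acaa2 (adjusted p = 0.0989), Crot (0.121) and Ehhadh (0.152) were among the calls lost. Ppara, Cd36 and Pdk4 lay below the filter.

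Glucose genes split evenly, with 3 of 13 higher and 3 lower. Gpd1, the glycerol phosphate dehydrogenase, read 7.24, 6.75, 7.14 and 7.71 with vehicle and 8.62, 8.87, 8.16 and 8.56 with D3T, a 2.54-fold rise. Gckr, the regulatory protein of glucokinase, rose 2.22-fold. Pfkfb1, the enzyme that sets the level of a regulatory fructose bisphosphate in liver, fell 3.09-fold and Slc2a2, the glucose transporter GLUT2, 2.12-fold. For all 4 the groups did not overlap. The call of Gpd1 held without vehicle arrays 2 and 4 (adjusted p = 0.048). Those of Gckr (0.0587), Pfkfb1 (0.21) and Slc2a2 (0.124) were lost there. Averaged over its probe sets, Pfkfb1 differed by -1.06 and was not called (adjusted p = 0.0639). Renewed quantile normalization raised the number higher from 3 to 5.

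Of 38 genes of amino acid breakdown 3 rose and 5 fell, near the shares of all genes (4.61% and 13.1%). Of 6 genes of the urea cycle list 1 rose and 1 fell. The fall was that of Glul, glutamine synthetase, given below, while Arg1, Asl, Cps1 and Otc did not pass. The rise, that of Ass1 (0.47 ± 0.15, adjusted p = 0.041), was lost after centring (adjusted p = 0.113), without filter (0.0587) and without vehicle array 1 or 3 or D3T array 1, 2 or 3 (0.0792 to 0.118). Aldh1l1, the folate enzyme that oxidises formyl groups, read 8.59, 9.15, 8.64 and 9.15 with vehicle and 10.58, 10.45, 10.21 and 10.58 with D3T, a 2.98-fold rise. Haao, of the tryptophan to NAD route, read 9.29, 9.16, 9.46 and 9.35 and 10.37, 10.11, 9.96 and 10.36, a 1.85-fold rise. Both were higher on every D3T array. Oat, which feeds ornithine into glutamate, read 10.05, 9.44, 10.02 and 9.98 with vehicle and 8.04, 8.73, 6.96 and 7.12 with D3T, a 4.47-fold fall. Glul, glutamine synthetase and a marker of hepatocytes around the central vein, read 11.01, 11.67, 10.996 and 10.27 and 9.24, 10.02, 9.77 and 9.12, a 2.73-fold fall. Neither overlapped between groups, and both calls held without vehicle arrays 2 and 4.

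Growth hormone sets much of the sex-specific pattern of rat liver and its output of insulin-like growth factors. Of 36 genes that depend on it or differ by sex, 14 fell and 1, Cyp2a1, rose, with a median of -0.24. Igfbp3, a carrier of IGF in blood, read 6.69, 7.97, 6.73 and 7.66 with vehicle and 4.78, 4.79, 4.46 and 4.44 with D3T, a 6.26-fold fall, although its second probe set differed by -0.05. Igf1 read 11.32, 11.15, 11.28 and 11.10 and 10.15, 10.54, 10.06 and 9.77, a 2.12-fold fall, with 2 other probe sets at -1.27 and -1.87 and 2 that did not pass (0.01 and 0.20).

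Igfbp1, the insulin-suppressed IGF binding protein, read 11.08, 11.91, 11.23 and 11.35 with vehicle and 9.10, 9.85, 10.55 and 9.16 with D3T, a 3.31-fold fall. Igfals, which completes the circulating IGF complex, fell 2.06-fold. Igf2, the fetal IGF and not in the list, rose 2.58-fold, from 5.87, 4.86, 5.52 and 5.40 to 6.72, 6.84, 7.10 and 6.45. Cyp17a1, a steroid hydroxylase, fell 2.52-fold. The D3T and vehicle arrays did not overlap for any of these 4 genes or for Igf1 and Igfbp3.

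The male-biased genes Cyp3a2 and Slco1a1 and the growth hormone dependent Sult1c3 are in the same list and were described above, as were the female-biased Sult2a1 and Sult2a2, which fell too. Cyp2c12, the standard female-specific P450, averaged 5.25 with vehicle and 5.65 with D3T, with overlapping arrays, and did not pass (0.40 ± 0.45). Without vehicle arrays 2 and 4 the falls numbered 7 of 36, and Igf1 (adjusted p = 0.0702), Igfbp1 (0.118) and Igfals (0.131) were not called. Igfals also lost its call without D3T array 3 (-0.88, adjusted p = 0.0517), D3T array 4 (-0.92, adjusted p = 0.0523) or under renewed quantile normalization (-0.81, adjusted p = 0.0524).

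Complement and coagulation genes, most of which hepatocytes secrete, fell or did not pass. Of 24 tested 13 fell and 0 rose, with a median of -0.48, and 15 had all D3T arrays below all vehicle arrays, against 17.3% of all genes. Mbl1, mannose-binding lectin of the complement system, read 10.93, 11.22, 10.93 and 10.77 with vehicle and 9.90, 9.77, 9.60 and 9.87 with D3T, a 2.26-fold fall. C1s, a protease of the first complement component, read 10.53, 10.86, 10.51 and 11.10 and 9.62, 9.78, 9.72 and 9.26, a 2.23-fold fall. Klkb1, plasma prekallikrein, read 9.91, 10.52, 10.23 and 10.34 with vehicle and 8.86, 9.53, 9.23 and 9.10 with D3T, a 2.1-fold fall. These 3 were the falls still called without vehicle arrays 2 and 4, where C4bpb (2.61-fold lower with all arrays) had an adjusted p of 0.0867 and the fibrinogen chain Fgg (1.48-fold lower) one of 0.0516.

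Other plasma proteins went both ways, with 6 of 33 higher and 7 lower. Alb, albumin, read 15.39, 15.38, 15.40 and 15.46 with vehicle and 15.91 ± 0.006 (mean ± SD, n = 4) with D3T, a 1.41-fold rise at the top of the scale. That call was lost under renewed quantile normalization (0.10, adjusted p = 0.108). Orm1, an acute phase glycoprotein, read 10.17, 10.73, 10.95 and 10.32 with vehicle and 11.79, 11.84, 11.97 and 11.73 with D3T, a 2.44-fold rise. Apoe and Ttr, carriers of lipid and of thyroid hormone, rose 1.56-fold and 1.48-fold. Crp, C-reactive protein, read 11.83, 11.77, 11.99 and 12.02 and 11.32, 10.75, 11.30 and 11.38, a 1.64-fold fall that was lost without vehicle arrays 2 and 4 (adjusted p = 0.0704). None of these 5 overlapped between groups.

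**Figure D4:**
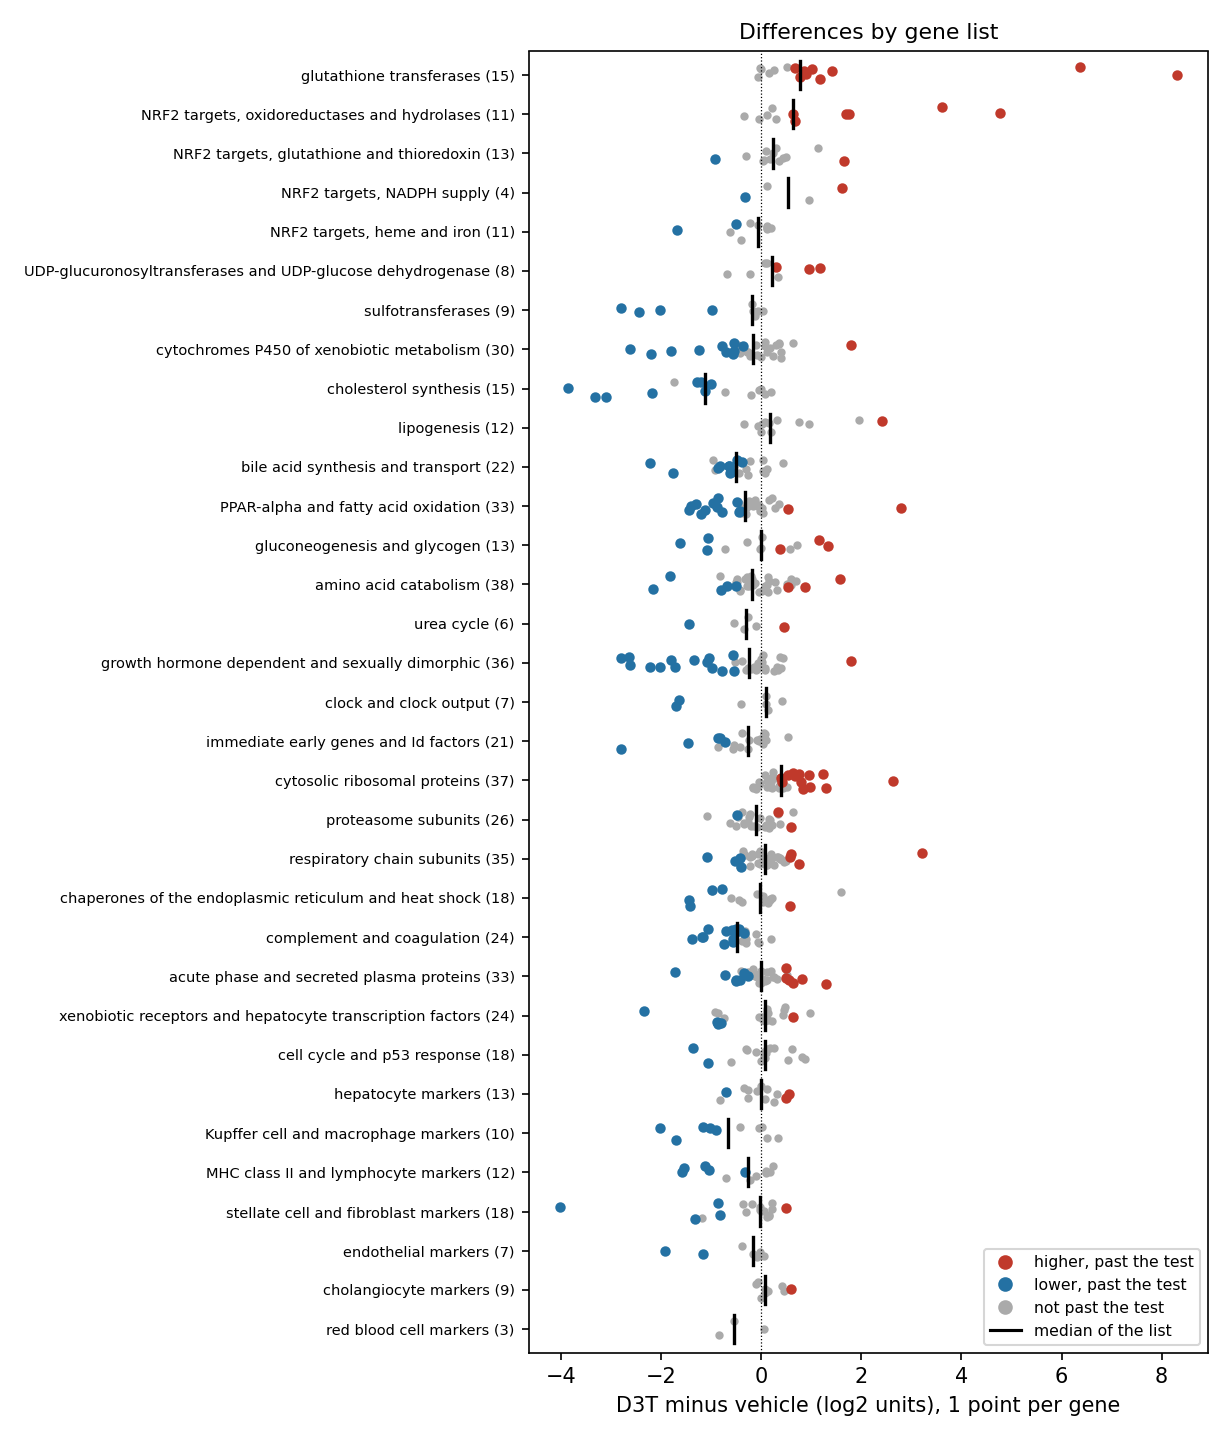
Difference between the D3T and vehicle means (log2 units, horizontal) of each tested gene in every list with 3 or more tested genes, 1 point per gene, coloured where past the test, with a bar at the median and the number of genes in brackets. The median of cholesterol synthesis lies at -1.12 and that of the glutathione transferases at 0.77, while most other medians lie within 0.5 of 0.

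Genes for proteins of the cytosolic ribosome rose or did not pass. Of 37 tested 13 rose and 0 fell, the median member differed by 0.39, and 19 had D3T arrays that did not overlap with vehicle, against 7.02% of all genes. Rplp0 read 9.69, 9.66, 10.01 and 10.01 with vehicle and 11.20, 10.73, 11.25 and 11.35 with D3T, a 2.45-fold rise. Rpl6 read 9.55, 9.52, 9.48 and 9.31 and 10.90, 10.47, 10.59 and 10.82, a 2.35-fold rise. Rpsa rose 1.94-fold and Rpl7a 1.74-fold. The count was sensitive to scaling, with 7 higher after centring of the medians and 18 higher and 1 lower after renewed quantile normalization, and it was 10 without vehicle arrays 2 and 4. Rps24 had the largest difference (2.63 ± 0.53), from 4.92, 5.40, 3.38 and 3.35 with vehicle to 6.93, 6.88, 6.86 and 6.91 with D3T, and its vehicle arrays 3 and 4 lay below their array medians, so its size is uncertain.

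Respiratory chain genes showed 4 higher and 4 lower of 35, against 4.61% and 13.1% of all genes, and 2 higher and 0 lower without vehicle arrays 2 and 4. Cox6c, a subunit of cytochrome oxidase, read 8.28, 7.89, 8.13 and 5.19 with vehicle and 10.68, 10.53, 10.41 and 10.71 with D3T (3.21 ± 0.76, adjusted p = 0.0089). Vehicle array 4 stood far below the other 3, and without vehicle arrays 2 and 4 the difference was 2.38 with an adjusted p of 0.0931. Of 18 chaperone genes 4 fell and 1 rose, against 13.1% and 4.61% of all genes. The fall of Hsp90b1 (-0.99 ± 0.27) was lost without D3T array 4 (adjusted p = 0.0628), vehicle array 2 (0.0663) or vehicle array 4 (0.0665), and when its probe sets were averaged (-0.42, adjusted p = 0.512). Canx, calnexin of the endoplasmic reticulum, read 11.39, 11.67, 11.42 and 11.81 with vehicle and 10.18, 9.75, 10.39 and 10.22 with D3T, a 2.71-fold fall, with 1 of 5 probe sets at 0.20 and the rest at -0.89 to -2.01. P4hb, a protein disulfide isomerase of the same compartment, read 10.83, 10.87, 10.82 and 11.24 and 11.60, 11.53, 11.52 and 11.44, a 1.5-fold rise. Proteasome genes, some of which are known NRF2 targets, gave 2 higher and 1 lower of 26.

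Clock genes encode the transcription factors that set the daily rhythm of liver metabolism. Per2, a repressor of the circadian clock, read 5.83, 6.11, 5.59 and 6.20 with vehicle and 4.42, 4.22, 4.17 and 4.10 with D3T, a 3.27-fold fall (-1.71 ± 0.13, adjusted p = 1.35e-06). Nr1d2, the clock repressor REV-ERB beta, read 8.27, 9.10, 8.60 and 9.30 and 7.07, 7.69, 7.05 and 6.87, a 3.13-fold fall. They were the 2 calls among 7 clock genes, both without overlap. The hour at which each animal was killed was not given in the sources used here, so time of day and group cannot be told apart.

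Egr1, an immediate early gene that responds to growth factors and stress, read 7.65, 9.67, 8.71 and 9.77 with vehicle and 6.51, 5.04, 6.44 and 6.63 with D3T, a 6.94-fold fall. D3T array 2 was the lowest array, vehicle array 1 the lowest of its group, and a second Egr1 probe set did not pass (-0.98). Klf9, which glucocorticoids induce, read 10.15, 10.85, 10.40 and 10.31 with vehicle and 8.51, 9.11, 9.25 and 8.98 with D3T, a 2.76-fold fall. Of 21 immediate early genes 5 fell and 0 rose, and without vehicle arrays 2 and 4 the count was 2. Of 24 receptors and liver transcription factors 4 fell and 1 rose, near the shares of all genes (13.1% and 4.61%). The rise was that of Cebpa (1.55-fold, from 4.10, 3.72, 4.03 and 4.23 to 4.25, 5.11, 4.48 and 4.78). Cebpb, its stress-responsive relative, fell 1.83-fold, from 10.47, 10.51, 10.43 and 10.42 to 9.48, 9.81, 9.54 and 9.52. Neither C/EBP gene was called without vehicle arrays 2 and 4 (adjusted p = 0.0702 and 0.114), and none of the 5 calls of that list was.

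Called markers of immune and connective tissue cells of the liver were mostly lower. In bulk RNA, fewer cells of a type and less RNA per cell cannot be told apart. Of 10 markers of Kupffer cells and macrophages 5 fell and 0 rose, against 13.1% and 4.61% of all genes. The mean level of the 10 ran from 6.88 to 7.15 on the vehicle arrays and from 6.25 to 6.45 on the D3T arrays. Cd14 (0.33 ± 0.58), Csf1r (0.11 ± 0.09), Itgam (0.02 ± 0.09), C1qc (-0.04 ± 0.14) and Lyz2 (-0.43 ± 0.21) did not pass. Aif1, a calcium-binding protein of macrophages, read 6.63, 7.19, 6.88 and 7.34 with vehicle and 4.84, 5.07, 4.97 and 5.11 with D3T, a 4.04-fold fall (adjusted p = 2.37e-05). Ctss, the lysosomal protease cathepsin S, read 8.78, 9.47, 8.96 and 9.01 and 7.12, 7.56, 7.43 and 7.30, a 3.25-fold fall. Clec4f, a lectin found on Kupffer cells, read 9.09, 9.32, 9.08 and 9.95 with vehicle and 8.29, 8.54, 8.19 and 8.32 with D3T, a 2.03-fold fall. In each of the 3 all D3T arrays lay below all vehicle arrays, and each call held without vehicle arrays 2 and 4.

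Antigen presentation genes of MHC class II gave all 5 falls among 12 markers of that class and of lymphocytes. RT1-Da, a class II alpha chain, read 9.01, 8.91, 8.77 and 9.23 with vehicle and 7.54, 7.19, 7.19 and 7.87 with D3T, a 2.9-fold fall. RT1-Bb, a beta chain, fell 2.99-fold and RT1-Ba, its partner, 2.18-fold. The falls numbered 3 without vehicle arrays 2 and 4, with RT1-Ba (-0.87, adjusted p = 0.15) and Cd74, the invariant chain (-0.93, adjusted p = 0.176), no longer called. Cd74 (-1.05 ± 0.30) also lost its call after renewed quantile normalization (adjusted p = 0.0541) and without vehicle array 4 or D3T array 1, 2 or 3 (0.0506 to 0.077). The mean of the 12 markers ran from 5.82 to 6.20 with vehicle and from 5.32 to 5.65 with D3T. The other 7 markers tested did not pass, and 4 of the 12 differed upward (by up to 0.24). Lymphocyte markers such as Cd3d, Cd4 and Cd8b lay below the filter.

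Stellate cells and fibroblasts make collagen, and of 18 markers 4 fell and 1 rose, against 13.1% and 4.61% of all genes. The median marker differed by -0.03, and the mean level ran from 5.90 to 6.01 with vehicle and from 5.49 to 5.55 with D3T. Bgn (0.15 ± 0.15), Dcn (0.22 ± 0.41) and Sparc (0.21 ± 0.20), matrix proteins of the same cells, did not pass, and Hgf, hepatocyte growth factor, rose (0.49 ± 0.16, adjusted p = 0.049). The call of Hgf was lost without vehicle arrays 2 and 4 and without some single arrays. Col1a1, the fibrillar collagen chain, read 6.59, 7.18, 6.59 and 7.47 with vehicle and 2.68, 2.87, 3.20 and 3.02 with D3T, below the median of every D3T array. Its difference of -4.01 ± 0.65 (adjusted p = 0.000762) is therefore not given as a fold, and its second probe set did not pass (-0.40). Col3a1 fell 1.78-fold and Vim, vimentin, 2.51-fold, from 7.07, 7.29, 7.28 and 7.61 to 5.62, 6.23, 6.12 and 5.97. Lyve1, a receptor of sinusoidal endothelium, read 6.74, 7.62, 7.05 and 7.73 with vehicle and 4.92, 6.08, 5.02 and 5.45 with D3T. Its 3.78-fold fall was 1 of 2 among 7 endothelial markers (4 after centring), against 13.1% of all genes. The other was Fcgr2b (-1.16 ± 0.31), which is also among the macrophage markers that fell. Icam1 (-0.39 ± 0.14), Kdr (-0.17 ± 0.64), Pecam1 (-0.03 ± 0.08), Vwf (0.06 ± 0.10) and Nos3 (-0.08 ± 0.14) did not pass. Pecam1, Vwf and Nos3 lay below the median of most arrays. Of 9 bile duct markers 1 rose and 0 fell. The rise was that of the keratin Krt8 (0.60 ± 0.18, adjusted p = 0.0362), which was lost after centring and without vehicle arrays 2 and 4. Epcam, Anxa4 and Tff3, of the same list, lay below the median of most arrays. Of 3 red blood cell markers 0 passed. The part of cell composition in the other results was not tested.

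Several of the largest changes lay outside the lists. Btd, biotinidase, which recycles the vitamin biotin, read 7.34, 9.14, 7.76 and 8.43 with vehicle and 3.45, 5.26, 5.54 and 3.83 with D3T (-3.65 ± 0.58, adjusted p = 0.000689). No fold is given, since D3T array 1 lay below the median of its array. D3T arrays 1 and 4 were lower than D3T arrays 2 and 3, and all were below vehicle. Wdfy3, a large scaffold of selective autophagy, read 6.61, 8.45, 7.56 and 7.90 with vehicle and 5.23, 5.02, 4.68 and 4.55 with D3T, a 6.77-fold fall. Tle1, a Groucho-type corepressor, read 7.21, 8.57, 7.09 and 7.58 and 4.69, 5.29, 5.22 and 4.88, a 6.03-fold fall. For both, vehicle array 2 was the highest and all D3T arrays were below all vehicle arrays.

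Mif, macrophage migration inhibitory factor, which hepatocytes also express, read 9.46, 9.55, 9.53 and 9.62 with vehicle and 11.61, 11.52, 11.66 and 11.67 with D3T, a 4.21-fold rise (2.07 ± 0.11, adjusted p = 4.87e-08). Its arrays lay close together within each group and far apart between groups. Cavin3, a caveolar coat protein, read 7.53, 6.92, 7.46 and 7.67 and 9.33, 8.996, 8.72 and 9.31, a 3.24-fold rise. Pebp1, a kinase inhibitor protein, rose 1.85-fold. Or10al7, annotated as an olfactory receptor, read 6.85, 4.97, 6.56 and 4.76 with vehicle and 7.39, 7.44, 8.24 and 8.37 with D3T, and its rise was not called without vehicle arrays 2 and 4 (adjusted p = 0.181). Zfp354a, a zinc finger factor counted above among the transcription factors, fell from 8.63, 9.41, 8.96 and 9.33 to 6.53, 7.66, 7.13 and 5.64, a call lost without those arrays (adjusted p = 0.16) or without D3T array 4 (-1.97, adjusted p = 0.0527).

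D3T was also set against the 2 substituted compounds at the same dose and time, to show where its profile differed from theirs. These comparisons share the D3T arrays with the one above, and they are not independent of it or of each other. Of 3104 genes, 9 were higher with D3T than with OLT and 18 lower (27 in all, 0.870%), and 6 were higher than with TBD and 12 lower (18 in all, 0.580%). p-values were adjusted over all probe sets within each of these 2 comparisons.

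Gstp1 read 9.36, 6.61, 8.92 and 8.43 on the OLT arrays and 8.56, 10.69, 10.99 and 11.39 on the TBD arrays, against 12.02 to 13.10 with D3T. D3T, without substituents, exceeded OLT by 4.18 ± 0.59 (adjusted p = 0.00232), and its excess over TBD of 2.11 ± 0.59 (95% interval 0.85 to 3.36) did not pass (adjusted p = 0.157). The rises of Akr7a3, Nqo1, Gsta3 and Ephx1 did not pass between the compounds. Akr7a3 differed by 1.04 from OLT (95% interval 0.36 to 1.72) and by 1.20 from TBD (0.52 to 1.88). For Nqo1 the values were 1.46 (-0.02 to 2.93) and 1.04 (-0.44 to 2.52), and for Gsta3 1.22 (0.26 to 2.18) and 0.76 (-0.19 to 1.72). None of these 6 passed, and their upper bounds allow differences of over 1 unit. Ephx1 differed by 0.04 (-0.35 to 0.44) and 0.08 (-0.32 to 0.48), the narrowest intervals of these genes.

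Of 30 P450 genes 5 were lower with D3T than with OLT and 3 lower than with TBD, and 0 were higher in either comparison. The share of all genes that were lower was 0.580% and 0.387%. Cyp3a2 read 13.54, 13.30, 13.29 and 13.44 with OLT and 12.83, 12.89, 13.60 and 13.28 with TBD, against 13.35 to 13.95 with vehicle and 10.64 to 11.41 with D3T. The difference was -2.40 ± 0.19 from OLT (adjusted p = 1.23e-05) and -2.16 ± 0.19 from TBD (adjusted p = 0.000101), with no overlap in either. Cyp1a2 was lower with D3T than with OLT (-2.96 ± 0.28, adjusted p = 6.68e-05), whereas D3T and TBD differed by -0.43 (95% interval -1.03 to 0.17, adjusted p = 0.619) and the gene did not pass. Cyp2b2 was lower than with OLT (-2.02 ± 0.44, adjusted p = 0.0425). Cyp3a23-3a1 was lower than with TBD (-1.39 ± 0.18, adjusted p = 0.00162) and than with OLT (-1.61 ± 0.18, adjusted p = 0.000189). Cyp2b2 and Cyp3a23-3a1 are known targets of the drug-sensing receptors CAR and PXR.

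Ugt2b1 rose with D3T and yet read lower than with OLT (12.10, 11.39, 11.75 and 11.95) or TBD (11.30, 11.71, 11.85 and 12.19), with differences of -1.99 ± 0.28 and -1.95 ± 0.28. Msmo1 read 8.48, 7.50, 7.47 and 9.14 with OLT and 8.02, 8.07, 8.87 and 8.15 with TBD, and the D3T differences from them were -2.48 ± 0.37 (adjusted p = 0.00309) and -2.60 ± 0.37 (adjusted p = 0.00384). Of the 15 cholesterol synthesis genes this was the 1 that passed in either comparison. The calls of Cyp3a2 and Msmo1 against both compounds, and those of Gstp1, Cyp1a2 and Ugt2b1 against OLT, were kept under every alternative setting tried.

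Acaa1b was higher with D3T than with OLT by 1.37 ± 0.30 and Igf2 by 1.00 ± 0.22, at adjusted p of 0.0403 and 0.044. Prodh2, of hydroxyproline breakdown, and Acat1, the mitochondrial acetoacetyl-CoA thiolase, were higher than with OLT by 0.97 ± 0.21 and 0.88 ± 0.18, though D3T and vehicle differed by 0.12 and -0.10 and did not pass. Against TBD, the reductase Ptgr1 (2.02 ± 0.33), the steroid dehydrogenase Hsd17b2 (1.77 ± 0.32) and Pck1 (0.99 ± 0.13), the rate-limiting enzyme of gluconeogenesis, were higher with D3T. D3T differed from vehicle by 0.29 in Ptgr1, -0.31 in Hsd17b2 and 0.01 in Pck1, none past the test. Pebp1 and RT1-A3 were higher than with TBD by 0.71 ± 0.14 and 0.57 ± 0.12, and Id2, an inhibitor of helix-loop-helix factors, was lower (-1.71 ± 0.25, adjusted p = 0.00559). Pebp1 (0.79 ± 0.14, adjusted p = 0.013) and Id2 (-1.16 ± 0.25, adjusted p = 0.0435) passed against OLT too. The calls of Acaa1b, Igf2, Prodh2, Acat1 and Cyp2b2 against OLT were each lost under 8 to 14 of the 21 or 22 alternative settings. So were those of Pebp1 and RT1-A3 against TBD. Against TBD, the call of Hsd17b2 was lost under 5, that of Ptgr1 under 2, and those of Id2, Cyp3a23-3a1 and Ugt2b1 under 1 each. The calls of Pebp1, Id2 and Cyp3a23-3a1 against OLT were not followed through these settings.

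**Figure D5:**
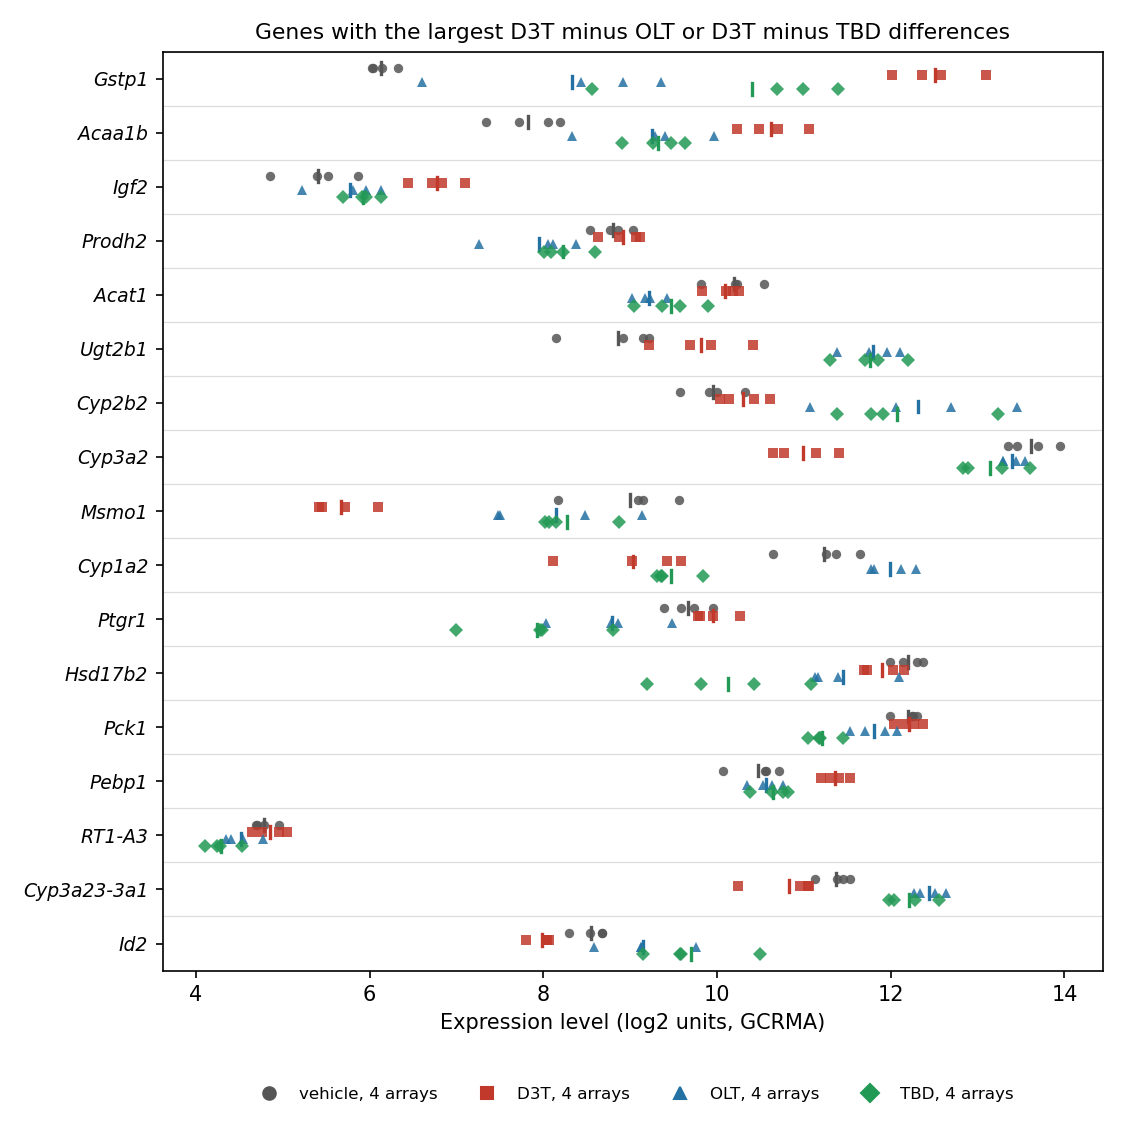
Expression level (log2 units) of the genes with the largest D3T minus OLT or D3T minus TBD differences past the test, 1 point per array and a bar at each mean of 4 arrays, for vehicle, D3T, OLT and TBD. The D3T arrays of Cyp3a2 (10.64 to 11.41) stand apart from the other 3 groups, and those of Gstp1 lie above all OLT and TBD arrays.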

How the data were processed

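RNA from 16 rat livers (4 per group) was measured on Affymetrix rat genome arrays after labelling with the Enzo kit, per the labels' protocols. The deposited values cover 8740 probe sets on a log2 scale, and the submitters' processing notes name GCRMA, of no stated version, as the method. It corrects background by probe sequence, which compresses dim signals, and normalizes between arrays. The medians of the D3T and vehicle arrays still ranged from 3.27 to 3.58. The number of arrays limits the precision. No detection calls or scan dates were used.

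Probe sets were named from the platform annotation, updated through Entrez IDs. Of 8740, 7006 had 1 symbol, 308 several (not named) and 1426 none, and 6985 matched. Testing required a value above the 40th percentile of the array on 4 or more of the 16, which left 5323 probe sets. limma 3.58.1 in R 4.3.3 (lmFit, eBayes) was fitted over all 16 arrays, two-sided, with Benjamini-Hochberg adjustment over all tested probe sets and a threshold of 0.05. Of a gene's tested probe sets the one brightest on average stood for it. Differences are given with SE and n = 4 per group. No arrays held identical values. The script was tested on simulated data.

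Genes named are the 15 largest rises and falls without overlap between groups, the 5 largest differences in each direction from OLT and TBD, a set of NRF2, P450 and sterol genes whatever they showed, and called and uncalled members of the gene lists. Members and lists were chosen with earlier results of these data known. Promoters (250 bases before the start) came from RefSeq on GRCr8 and were searched on both strands. Tables used pandas 2.3.3 in Python 3.11.15 and figures matplotlib 3.10.9. Alternatives covered the filter, scaling, spread estimate, replicate block, thresholds, probe set choice and left-out arrays.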

Additional observations from a re-analysis of the deposited data

Results flagged for a closer look

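Among 286 groups of 4 arrays examined for the genes named (vehicle and D3T), 11 held an array that stood apart from the other 3 by Dixon's criterion (a gap over 0.829 of the range). Chance alone gives about 5 percent of such groups.

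Vehicle arrays stood apart in 6 genes. Cox6c read 5.19 on vehicle array 4 against 7.89 to 8.28 on the others, Fgb 13.55 on array 4 against 13.33 to 13.36, and P4hb 11.24 on array 4 against 10.82 to 10.87. Cyp2a1 read 7.03 on vehicle array 1 against 7.50 to 7.52, Oat 9.44 on array 2 against 9.98 to 10.05, and Lss 6.14 on array 3 against 6.65 to 6.74.

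D3T arrays stood apart in 5 genes. Egr1 read 5.04 on D3T array 2 against 6.44 to 6.63, and Crp 10.75 on the same array against 11.30 to 11.38. Nqo1 read 7.29 on D3T array 3 against 8.13 to 8.29, and Cyp3a23-3a1 10.25 on the same array against 10.95 to 11.06. C1qb read 8.68 on D3T array 1 against 9.01 to 9.05.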

How the results depend on the processing

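All 127 called genes with values in the text kept the direction of their D3T minus vehicle difference under every alternative, and 79 kept their call under each of them. The 981 called probe sets (329 higher, 652 lower) became 672 higher after renewed quantile normalization and 513 higher after median centring. With array weights, whose estimation did not converge, there were 2263 (1226 higher, 1037 lower). With each array's 40th percentile as a covariate there were 1741 (962 higher), and at an adjusted p under 0.01 there were 495 (174 higher, 321 lower). Leaving out single arrays gave 689 to 1139 calls. Leaving out vehicle replicates 2 and 4 together, an alternative chosen after seeing the data, gave 418 (169 higher, 249 lower), and 84 of the 127 genes were still called. The replicate block gave 888 calls and kept 121 of the 127 genes. Same-numbered arrays were not paired in the main fit. Their correlations ranged from -0.0354 to 0.26, against -0.216 to 0.173 for arrays of different number. These values do not settle whether the arrays are paired.

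D3T minus OLT had 57 called probe sets, and 92 after renewed quantile normalization, 171 with array weights, 149 with the covariate and 23 at the stricter threshold. Leaving out arrays gave 30 (without D3T array 4) to 88 (without OLT array 1 and TBD array 4). D3T minus TBD had 35, and 8 when fitted on 8 arrays, 13 after centring, 152 with weights, 117 with the covariate and 12 at the stricter threshold. Leaving out arrays gave 19 (without D3T array 3) to 34.

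Signs changed in small, uncalled differences. Fdft1 was 0.22 after quantile normalization, 0.12 with weights, 0.0099 with the covariate and -0.085 to 0.10 without single arrays. Gstm7 was 0.21, 0.021 and 0.013 under the same settings and -0.11 to 0.052 without single arrays. Txnrd1 was -0.068 to 0.39 without single arrays, and Gclm -0.42 as the mean of its probe sets. For Ephx1 the difference from OLT was -0.036 after centring and -0.095 to 0.14 without single arrays, and that from TBD -0.092 to 0.20. The causes were not tested.

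With 4 arrays a group, small differences and dim genes are the least certain, and folds of dim genes depend on the background correction.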
